A study of Mus musculus with 4 samples.

Results

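Type I interferons are cytokines that cells release on sensing foreign or misplaced nucleic acid, and they act through the receptor chains Ifnar1 and Ifnar2. The 8 genes described here are commonly used as a readout of that response, and were taken by symbol from the feature lists of 4 single-cell RNA libraries. All 8 were present among the 31914 joined features, and each had at least 1 UMI (a unique molecular identifier, which marks 1 captured RNA molecule) in every library. They are Isg15, Irf7, Bst2, Ifi27l2a, Ifit3, Rtp4, Ifi203 and Zbp1.

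The libraries came from embryos of C57 Bl/6 mice and hold cells of the embryonic periphery at E14.5, the periphery at E13.5, the fetal liver at E14.5 and the fetal liver at E13.5, with 1 library of each and no genetic change or treatment named in the labels. CD45+ cells were enriched on magnetic beads and live CD45+ F4/80- IL7Ra+ cells were sorted from them, a gate aimed at lymphoid tissue inducer (LTi) cells and their progenitors. The periphery libraries used the 10x Genomics 3' kit of version 2 and those of fetal liver its version 3, so kit and tissue cannot be told apart. The labels do not say how many embryos were pooled. Each group is a single library, so values carry counting intervals and no test.

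Receptor binding activates the kinases Jak1 and Tyk2, and the signal ends at interferon-stimulated response elements in target promoters. Among the targets, Irf7 is a transcription factor that amplifies interferon production, Zbp1 is a sensor of Z-form nucleic acid that can start cell death, and Ifi203 belongs to the DNA-binding PYHIN family. Isg15 is a ubiquitin-like protein that is attached to other proteins, Ifit3 is an antiviral tetratricopeptide repeat protein, and Bst2 (tetherin) holds budding enveloped virus at the cell surface and also marks mouse plasmacytoid cells. Rtp4 is an interferon-induced receptor transporter protein, and Ifi27l2a is a small protein of the Ifi27 family. Blood cells differ in how much of such genes they hold without any infection.

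Promoters are shown because interferon-stimulated genes are defined by a response that acts through elements in them. The RefSeq promoter table (GRCm38.p6) held 5 of the 8 genes, namely Isg15, Irf7, Bst2, Ifit3 and Ifi203. The 10-base core GAAANNGAAA, or TTTCNNTTTC on the other strand, was searched in the 300 bases around each start site, with overlapping matches counted separately. At least 1 core was found in 4 of the 5 genes, against 3.99% of the 27025 genes with a promoter of that length. The sequences below are the 250 bases before the start of 3 of them, 5′ to 3′ on the strand of the gene, with the cores in capitals.
Isg15: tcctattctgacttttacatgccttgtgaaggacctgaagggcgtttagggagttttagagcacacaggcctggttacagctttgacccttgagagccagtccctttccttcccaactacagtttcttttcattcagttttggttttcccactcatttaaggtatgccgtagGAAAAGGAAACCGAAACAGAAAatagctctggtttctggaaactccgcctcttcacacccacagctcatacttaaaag
Bst2: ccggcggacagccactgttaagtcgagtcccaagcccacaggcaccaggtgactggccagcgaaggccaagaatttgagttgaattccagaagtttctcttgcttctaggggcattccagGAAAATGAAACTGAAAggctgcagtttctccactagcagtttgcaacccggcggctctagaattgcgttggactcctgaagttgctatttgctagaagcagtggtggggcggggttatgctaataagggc
Ifit3: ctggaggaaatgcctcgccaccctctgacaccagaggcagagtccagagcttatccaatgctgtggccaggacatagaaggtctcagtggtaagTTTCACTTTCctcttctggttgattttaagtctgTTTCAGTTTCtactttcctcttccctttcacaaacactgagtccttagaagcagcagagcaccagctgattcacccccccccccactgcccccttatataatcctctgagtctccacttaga

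The Isg15 sequence lies at chr4:156200819-156201068 on the minus strand, and its 3 cores overlap in a run that starts 78 bases before the start site. The Bst2 sequence lies at chr8:71537473-71537722 on the minus strand, with 2 overlapping cores that begin 130 bases before the start. The Ifit3 sequence lies at chr19:34583279-34583528 on the plus strand, with 2 separate cores on the opposite strand, 156 and 122 bases before the start. Ifi203 had 1 core, GAAATCGAAA, 35 bases before the second of its 2 start sites, and Irf7 had none in this window. A match describes the letters of the window only.

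On GRCm38, with genes as GENCODE M21 annotates them, all 8 are protein coding. Isg15 spans chr4:156199424-156200818, Irf7 chr7:141262706-141266481, Bst2 chr8:71534255-71537456 and Ifi27l2a chr12:103442167-103443680, all on the minus strand. Zbp1 (chr2:173206612-173218923) and Ifi203 (chr1:173920407-173942672) also lie on the minus strand, and Ifit3 (chr19:34583531-34588731) and Rtp4 (chr16:23520291-23614222) on the plus strand. Counts of Ifit3 and Ifi203 are uncertain, because near-identical copies can take or lend reads. Of the 50-base stretches in Ifit3 transcripts 51.2% also occur in another gene, Ifit3b, and 12.2% of those of Ifi203 occur elsewhere, mostly in Ifi203-ps and Mndal. Within the last 500 bases, where a 3' kit reads, the shares were 14.9% for Ifit3 and 9.1% for Ifi203.

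After filtering, 4340 and 4155 periphery cells and 10753 and 9758 fetal liver cells remained at E14.5 and E13.5, with a median of 8448, 11096, 15572 and 18176 UMIs per cell in that order. Both periphery libraries shared 33 barcodes and both fetal liver libraries 29, against 0 to 3 between tissues. Summed over all kept cells, the 11 LTi markers held 4478 CPM in E14.5 periphery, 2287 CPM in E13.5 periphery, 116 CPM in E14.5 fetal liver and 119 CPM in E13.5 fetal liver. CPM here is a gene's UMIs per 1000000 UMIs of the summed cells. LTi-like cells, as named further on, were 1.95% of E14.5 and 3.09% of E13.5 fetal liver cells.

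Taken over whole libraries, each of the 8 genes had its own pattern. Bst2 was seen in 2304 of 4340 cells of E14.5 periphery and 2398 of 4155 of E13.5 periphery, and Ifit3 was rare in every library. Isg15 stood at 11.4 CPM (10.4 to 12.4) in E14.5 periphery, 36.6 CPM (35.0 to 38.4) in E13.5 periphery, 12.1 CPM (11.5 to 12.6) in E14.5 fetal liver and 12.5 CPM (11.96 to 12.99) in E13.5 fetal liver, with exact 95% Poisson intervals that cover counting error only. Only E13.5 periphery stood apart for Isg15, and the intervals of neighbouring libraries among the other 3 overlapped. Irf7 held 16.0 CPM (14.8 to 17.2) in E14.5 periphery, 16.8 CPM (15.7 to 17.98) in E13.5 periphery, 9.43 CPM (8.99 to 9.89) in E14.5 fetal liver and 11.2 CPM (10.7 to 11.7) in E13.5 fetal liver. The periphery libraries overlapped and both were above fetal liver.

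Bst2 held 107 CPM (104 to 110) in E14.5 periphery, 171 CPM (167 to 175) in E13.5 periphery, 152 CPM (150.5 to 154) in E14.5 fetal liver and 103 CPM (101 to 104) in E13.5 fetal liver. Its stage order was opposite in the tissues, and the 2 lowest libraries overlapped. Ifi27l2a held 19.4 CPM (18.04 to 20.7) in E14.5 periphery, 32.9 CPM (31.4 to 34.6) in E13.5 periphery, 20.4 CPM (19.7 to 21.1) in E14.5 fetal liver and 9.64 CPM (9.20 to 10.1) in E13.5 fetal liver. It too was lower at E14.5 in periphery and higher at E14.5 in fetal liver, and both E14.5 libraries overlapped.

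Rtp4 held 11.6 CPM (10.6 to 12.7) in E14.5 periphery, 20.8 CPM (19.6 to 22.1) in E13.5 periphery, 23.7 CPM (23.0 to 24.5) in E14.5 fetal liver and 27.4 CPM (26.7 to 28.2) in E13.5 fetal liver, all of them apart. Ifi203 held 36.0 CPM (34.2 to 37.8) in E14.5 periphery, 34.6 CPM (33.0 to 36.2) in E13.5 periphery, 108 CPM (107 to 110) in E14.5 fetal liver and 180 CPM (178 to 182) in E13.5 fetal liver. Fetal liver was above periphery for Ifi203 at both stages, and the periphery libraries overlapped. Zbp1 held 7.58 CPM (6.77 to 8.46) in E14.5 periphery, 7.35 CPM (6.62 to 8.14) in E13.5 periphery, 1.21 CPM (1.06 to 1.39) in E14.5 fetal liver and 0.713 CPM (0.596 to 0.846) in E13.5 fetal liver, so that the tissues stood apart and the periphery stages overlapped. Ifit3 was close to absent, with 61 UMIs in E14.5 periphery, 37 in E13.5 periphery, 74 in E14.5 fetal liver and 58 in E13.5 fetal liver. Its level was 1.45 CPM (1.11 to 1.87) in E14.5 periphery and 0.735 CPM (0.518 to 1.01) in E13.5 periphery.

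**Figure D1:**
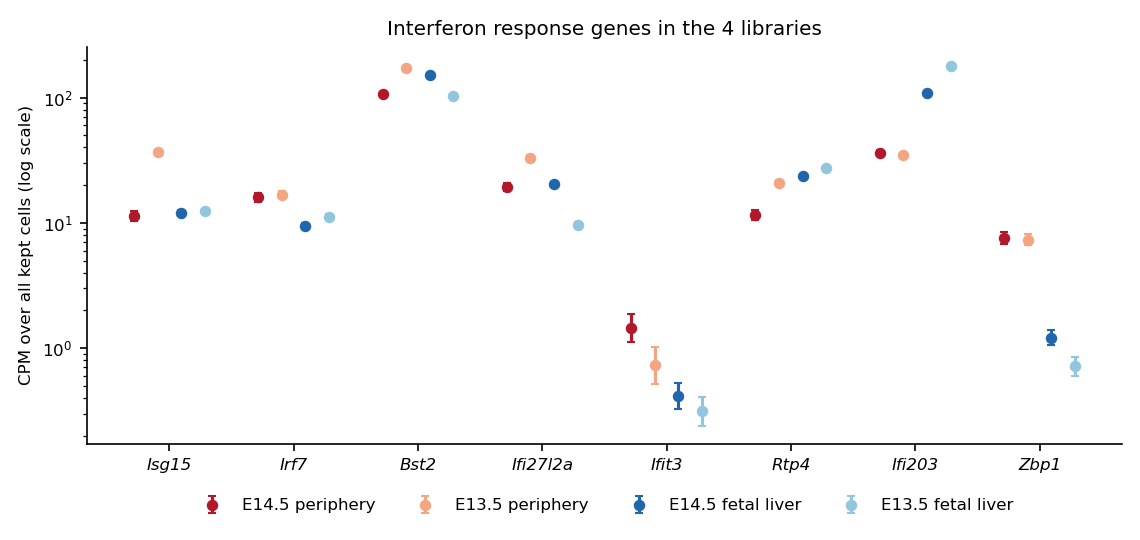
CPM of each of the 8 genes over all kept cells on a log axis, with 1 point per library (E14.5 and E13.5 periphery, E14.5 and E13.5 fetal liver from left to right) and exact 95% Poisson bars for counting error. Isg15 is high in E13.5 periphery only (36.6 CPM), Ifi203 is high in both fetal liver libraries (108 and 180 CPM), and Ifit3 lies under 2 CPM in all 4.

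The first comparison asked how the genes moved between the stages in periphery. Isg15 was lower at E14.5, and the other 7 genes stayed under the size used to call a change. A change was called when the log2 fold, taken after adding 5 CPM to both sides and subtracting the median fold of all measured genes, was at least 1 in size, and a gene counted as measured when 1 of the libraries compared reached 10 CPM. The Isg15 log2 fold was -1.57, the only 1 of the 8 called, against 2.31% of the 7243 measured genes called lower and 1.44% called higher. With equal weight per cell the Isg15 fold was -0.98 and no member was called lower. Bst2 (-0.88), Ifi27l2a (-0.87) and Rtp4 (-0.86) followed, Irf7 stood at -0.28, Ifi203 at -0.18, and Zbp1 (-0.20) and Ifit3 (-0.06) did not reach 10 CPM. The median of the 8 was -0.57. The subtracted median was 0.23, so that Ifit3, Ifi203 and Zbp1 are below 0 only relative to the median gene.

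Some stress genes moved with the stages as well. Of 18 on a list 17 were measured, 8 below and 9 above 0, with a median log2 fold of 0.13. Hspa1a, a heat shock chaperone, held 0.739 CPM in E14.5 periphery and 52.8 CPM in E13.5 periphery. Fosb, Ier3 and Nr4a1 were also called lower, while Jun and Dusp1 were called higher. Of all measured genes, 2.31% were called lower and 1.44% higher. Their part in the interferon gene values was not tested.

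The stage folds differed between the cell populations of periphery, and so did the makeup of the libraries. Cells of each tissue were clustered without the 8 genes and without the interferon lists, and clusters were named from marker sets, with the suffix -like because no deposited annotation was used. LTi-like cells were 71.8% of cells in E14.5 periphery and 38.3% in E13.5 periphery. Innate lymphoid progenitor-like cells (29 and 571 cells at E14.5 and E13.5), plasmacytoid-primed-like cells (7 and 132) and the unnamed cluster 5, led by Cd34 and Flt3 among others (28 and 556), were almost confined to E13.5. The 9 innate lymphoid progenitor markers nevertheless summed to 2682 CPM over all kept cells of E14.5 periphery and 1106 CPM at E13.5. In LTi-like cells they summed to 3265 and 1634 CPM at those stages. The count of 29 therefore does not show that cells with these markers were missing at E14.5.

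**Figure D2:**
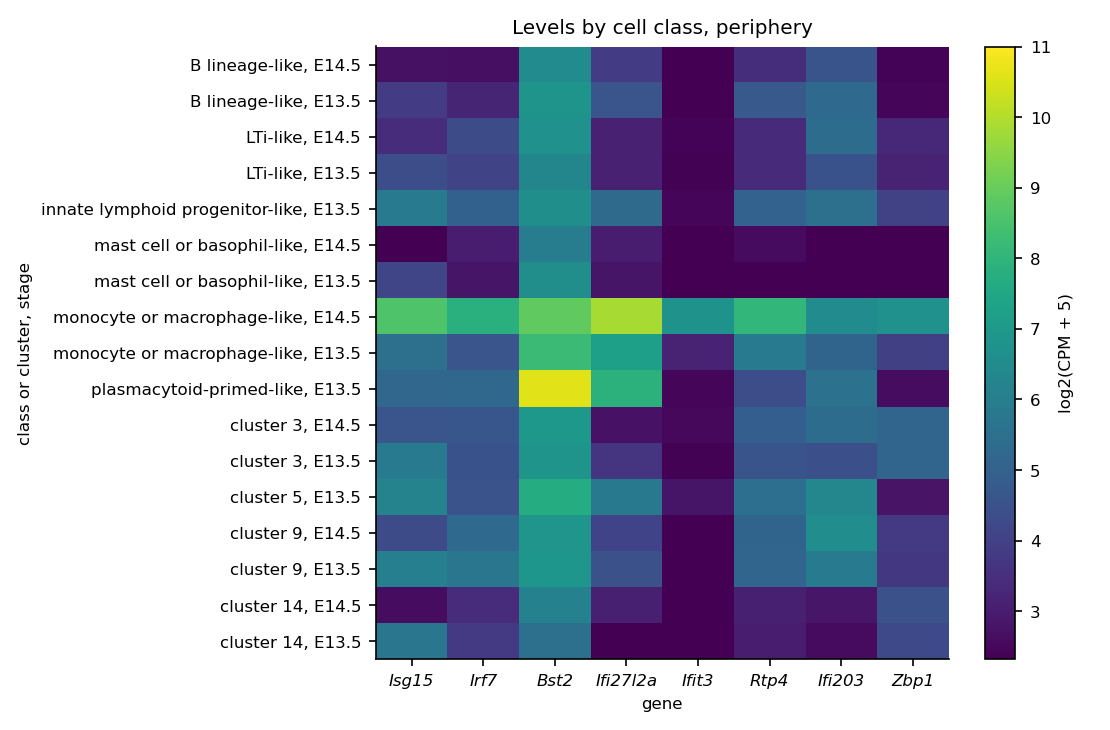
Colour gives log2(CPM + 5) of each gene (columns) in each periphery class or cluster with at least 50 cells in that library (rows, E14.5 above E13.5). The E14.5 monocyte or macrophage-like row is above the E13.5 row for all 8 genes, while Bst2 is brightest in E13.5 plasmacytoid-primed-like cells (1568 CPM).

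Monocyte or macrophage-like cells of the periphery held more of every member at E14.5 than at E13.5. The class had 99 cells at E14.5 and 175 at E13.5, from clusters 12 and 15, and all 12 of its markers were at 10 CPM or more in both libraries. Isg15 held 383 CPM (331 to 442) at E14.5 and 41.0 CPM (33.3 to 50) at E13.5. Irf7 held 221 CPM (182 to 266) at E14.5 and 19.7 CPM (14.46 to 26.2) at E13.5. Both genes lay far outside their counting intervals between the stages, with log2 folds of 2.95 for Isg15 and 3.07 for Irf7.

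The other members pointed the same way. Ifi27l2a held 931 CPM (849 to 1019) at E14.5 and 144 CPM (129 to 160) at E13.5. Rtp4 held 265 CPM (222 to 314) at E14.5 and 55.3 CPM (46.2 to 65.5) at E13.5. Ifit3, near absence elsewhere, held 103 CPM (76.8 to 135) at E14.5 and 4.19 CPM (2.01 to 7.70) at E13.5. The intervals of these 3 genes did not overlap between the stages. Zbp1 held 98.9 CPM (73.4 to 130) at E14.5 and 10.5 CPM (6.77 to 15.4) at E13.5. Ifi203 held 87.0 CPM (63.2 to 117) at E14.5 and 30.1 CPM (23.6 to 38.0) at E13.5. Bst2 held 470.5 CPM (413 to 534) at E14.5 and 300 CPM (278 to 322) at E13.5, the smallest log2 fold of the 8. Thus 7 of the 8 were called higher and Bst2 (0.52) was not, with a median log2 fold of 2.58, against 5.26% of the 7154 genes measured in the class called higher and 4.88% called lower.

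The rise was uneven over cells. In cluster 12, the deeper of its clusters, Isg15 was seen in 18 of 38 cells at E14.5 and 39 of 113 cells at E13.5, and 1 E14.5 cell held 41 of the 182 Isg15 UMIs. Ifi27l2a was seen in 28 of 38 cells at E14.5 and 50 of 113 at E13.5, and Ifit3 in 9 of 38 at E14.5 and 5 of 113 at E13.5. The class differed in more than these genes. Its median depth was 1365 UMIs at E14.5 and 12329 at E13.5, since 61 of the E14.5 cells were in the shallow cluster 15 (median 1014 UMIs). Cluster 12 alone gave a median fold of 2.72, and cluster 15 alone 0.95 with a counting half-width of 2.29.

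The marker makeup of the class shifted with the interferon genes. Its own 12 markers summed to 14188 CPM at E14.5 and 7247 CPM at E13.5. Ly6c2, a marker of inflammatory monocytes, held 287 CPM at E14.5 and 27.2 CPM at E13.5, Lyz2 5537 and 1511 CPM, and S100a8, which monocytes and neutrophils share, 2813 and 520 CPM at the same stages. The 11 neutrophil lineage markers, S100a8 among them, summed to 4080 CPM at E14.5 and 1187 CPM at E13.5, with 4 of the 11 at 0 at each stage. The 12 group 1 innate lymphoid or NK markers summed to 27.7 CPM at E14.5 and 625 CPM at E13.5. The macrophage complement gene C1qb held 2631 CPM at E14.5 and 1947 CPM at E13.5. Adgre1, which codes for the F4/80 antigen that the sort selected against, held 225 CPM at E14.5 and 109 CPM at E13.5. Il7r held 51.4 CPM at E14.5 and 89.6 CPM at E13.5, and the 11 LTi markers summed to 886 CPM at E14.5 and 725 CPM at E13.5. The part of these markers in the interferon gene levels was not tested. Marker sums of plasmacytoid-primed cells were low, at 123 CPM at E14.5 and 234 CPM at E13.5, and the defining gene Siglech had 1 UMI at E14.5.

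The class held a large share of the UMIs of some members and not of others. Its cells were 2.28% of E14.5 periphery cells and held 85.2% (73.8 to 93) of Ifit3 UMIs, 58.0% (54.5 to 61.4) of Ifi27l2a UMIs, 40.7% (36.2 to 45.2) of Isg15 UMIs and 27.5% (23.6 to 31.7) of Rtp4 UMIs. The shares at E14.5 were smaller for Irf7 (16.7%), Zbp1 (15.7%), Bst2 (5.29%) and Ifi203 (2.92%). These shares depend on depth as well as on level. The median depth of the class was 1365 UMIs at E14.5, against 8448 in its library, and 12329 at E13.5, against 11096. In CPM, Ifi203 at E14.5 was higher in the class than in its library. At E13.5 the class was 4.21% of cells. It held 27.0% (13.8 to 44.1) of Ifit3, 20.7% (18.8 to 22.7) of Ifi27l2a, 5.31% (4.33 to 6.44) of Isg15 and 12.6% (10.6 to 14.7) of Rtp4 UMIs. Intervals for these and later shares are exact Clopper-Pearson intervals. For shares of UMIs they treat each UMI as independent, and are too narrow where few cells hold many. In cluster 12 at E14.5, 1 cell held 20 of the 48 Ifit3 UMIs, and 1 cell held 72 of the 455 Ifi27l2a UMIs. Without the class, the periphery folds were -2.04 for Isg15, -1.52 for Ifi27l2a and -1.07 for Rtp4, all past the call size. The share of all genes past it in that setting is not given.

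**Figure D3:**
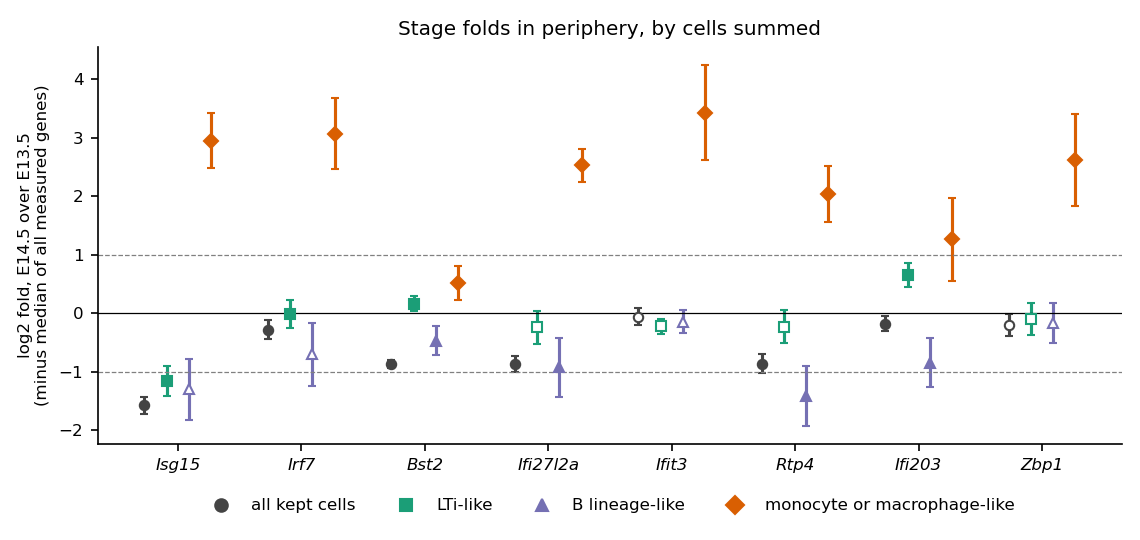
Log2 fold of E14.5 over E13.5 in periphery, minus the median of all measured genes, for each gene when summed over all kept cells, LTi-like, B lineage-like or monocyte or macrophage-like cells. Bars are counting half-widths, open symbols mark genes under 10 CPM in both libraries, and dashed lines mark the call size of 1; Isg15 is at -1.16 in LTi-like and at 2.95 in monocyte or macrophage-like cells.

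In LTi-like cells, the main population of the gate, Isg15 fell and the other members kept low or moderate levels. Isg15 held 5.78 CPM (4.92 to 6.74) at E14.5 and 15.5 CPM (13.7 to 17.5) at E13.5, a log2 fold of -1.16 and the only member called, against 1.14% of the 7076 measured genes called lower. Ifi203 held 37.0 CPM at E14.5 and 17.7 CPM at E13.5 (0.66), and Bst2 held 99.2 CPM at E14.5 and 74.3 CPM at E13.5 (0.16). Irf7 held 14.7 CPM at E14.5 and 12 CPM at E13.5 (-0.01). Ifi27l2a, Rtp4, Zbp1 and Ifit3 stayed under 6 CPM at both stages, and the median of the 8 was -0.16. Different clusters make up the class at each stage, with clusters 0, 2, 7 and 8 holding nearly all E14.5 cells and clusters 1 and 6 nearly all E13.5 cells. Hspa1a was lower in the class too (-3.06).

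Isg15 was also lower at E14.5 in the other 5 periphery populations with at least 50 cells at both stages, the monocyte or macrophage-like cells excepted. It held 19.4 CPM (14.8 to 25.1) at E14.5 and 52.7 CPM (46.6 to 59.3) at E13.5 in the unnamed cluster 3, led by Klrd1, Ccl5 and Cd3g among others. In cluster 9, led by MHC class II genes, it held 15.1 CPM (9.08 to 23.6) at E14.5 and 61.4 CPM (50.8 to 73.6) at E13.5. In cluster 14, led by mast cell protease and T lineage genes, it held 1.13 CPM (0.0287 to 6.32) at E14.5 and 47.9 CPM (35.5 to 63.4) at E13.5. The folds were -1.48 in cluster 3, -1.98 in cluster 9 and -3.30 in cluster 14, all called lower, against 1.85%, 3.06% and 2.29% of measured genes. Mast cell or basophil-like cells had no Isg15 UMI in 111 cells at E14.5 and 12 UMIs (12.6 CPM, 6.505 to 21.99) in 54 cells at E13.5, called lower against 2.23% of 6690 measured genes, with no fold given against a level of 0. The class is made of clusters 16 (60 cells) and 18 (51 cells, median 1104 UMIs) at E14.5 and of cluster 16 alone at E13.5. B lineage-like cells held 1.55 CPM (0.709 to 2.94) at E14.5 and 9.61 CPM (6.98 to 12.9) at E13.5, under the measured minimum. Of the populations too small for a comparison at E14.5, the 29 innate lymphoid progenitor-like cells held 50.3 CPM (26.8 to 85.9) at E14.5, against 52.7 CPM (47.0 to 59.0) at E13.5, with overlapping intervals.

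Rtp4 was the member called lower in B lineage-like cells, with 6.03 CPM at E14.5 and 21.6 CPM at E13.5 (-1.42), against 2.05% of 6403 measured genes. Most of the B lineage-like cells were in cluster 11 at E14.5 and in cluster 10 at E13.5. In cluster 3 Zbp1 held 30.5 CPM (24.6 to 37.5) at E14.5 and 31.0 CPM (26.4 to 36.2) at E13.5, with overlapping intervals. In fetal liver, among populations of at least 50 cells, its highest level was in T cell-like cells, with 36.9 CPM (30.6 to 44.1) at E14.5 and 26.2 CPM (17.7 to 37.4) at E13.5. This class is cluster 18, led by Ccl5, Arg1 and Cd3g among others, where 7 of the 12 T cell markers reached the naming threshold. The marker sets of innate lymphoid progenitor and of group 1 innate lymphoid or NK cells also met it, so the name is uncertain.

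At E13.5 the clusters with few cells a day later held much of the signal. Cluster 5 held 67.8 CPM of Isg15 (62.6 to 73.4), 203 CPM of Bst2 and 52.4 CPM of Ifi27l2a, and innate lymphoid progenitor-like cells held 52.7 CPM of Isg15 (47.0 to 59.0) and 27.3 CPM of Irf7. Plasmacytoid-primed-like cells, 3.18% of E13.5 periphery cells, held 31.2% (30.3 to 32.2) of Bst2 and 24.3% (22.3 to 26.4) of Ifi27l2a UMIs. With each class given the same share at both stages, the median stage fold of the 8 was 0.36 and Ifi27l2a (1.29) was called higher, against 1.15% of 7214 measured genes. This covered 7 populations with 96.1% of E14.5 and 68.4% of E13.5 cells, and without the monocyte or macrophage-like class the median was -0.18.

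The second comparison was between stages in fetal liver, where no member passed the call size. Bst2 (0.58) and Ifi27l2a (0.82) were higher and Ifi203 (-0.68) was lower at E14.5, the other 5 lay within 0.2 of the median gene, and the median of the 8 was 0.03. None of the 8 was called, against 0.31% of 7743 measured genes called lower and 1.29% called higher. Plasmacytoid-primed-like cells were 6.60% of cells at E14.5 and 2.59% at E13.5. They held 26.2% of Bst2 UMIs at E14.5 and 6.68% at E13.5, and at E14.5 also 19.7% of Irf7 and 15.1% of Isg15 UMIs. The part of this share in the stage folds was not tested.

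In plasmacytoid-primed-like cells of fetal liver 3 members were called higher at E14.5. Bst2 held 744 CPM (726 to 761) at E14.5 and 313 CPM (296 to 331) at E13.5. Ifi27l2a held 170 CPM (162 to 178) at E14.5 and 41.5 CPM (35.4 to 48.3) at E13.5, and Isg15 held 33.9 CPM at E14.5 and 11.9 CPM at E13.5. The folds of 1.22, 1.90 and 1.19 were called higher, against 0.503% of 7756 measured genes. Irf7 held 34.7 CPM (31.0 to 38.6) at E14.5 and 18.1 CPM (14.2 to 22.8) at E13.5, a log2 fold of 0.76 that was not called although the intervals are apart. The class held 44.6% (43.0 to 46.3) of fetal liver Ifi27l2a UMIs at E14.5 and 9.43% (8.11 to 10.9) at E13.5. Ifi203 did not share this, with 144 CPM at E14.5 and 163 CPM at E13.5 in the class.

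Ifi203 was instead highest in 2 unnamed fetal liver clusters. Cluster 13, led by Batf3, Id2 and Nrp1 among others, held 362 CPM (343 to 382) at E14.5 and 461 CPM (449 to 473) at E13.5, and cluster 14, led by Nfil3, Id2 and Nrp1 among others, held 293 CPM (279 to 308) at E14.5 and 418 CPM (406 to 430) at E13.5. These clusters were 1.57% and 1.95% of cells at E14.5 and 6.03% and 4.74% at E13.5. The stem and multipotent progenitor-like cells were intermediate, with 215 CPM at E14.5 and 167 CPM at E13.5. Neutrophil lineage-like cells were low, with 15.7 CPM at E14.5 and 3.72 CPM at E13.5. Neutrophil lineage-like Ifi203 (1.25) was called higher, against 0.376% of 7444 measured genes.

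Other fetal liver populations had 1 or 2 members called. In cluster 13 Bst2 held 256 CPM at E14.5 and 98.2 CPM at E13.5 (1.33) and Ifi27l2a held 45.5 CPM at E14.5 and 18.1 CPM at E13.5 (1.12), both called higher against 0.362% of 7737 measured genes. Mast cell or basophil-like cells held less Isg15, with 1.75 CPM (0.934 to 3) at E14.5 and 22.5 CPM (15.8 to 31.2) at E13.5 (log2 fold -2.001), and less Ifi203 (-1.07), both called lower against 0.435% of 7582 measured genes. In LTi-like cells of fetal liver Bst2 was the 1 member called higher, with 106 CPM at E14.5 and 37.9 CPM at E13.5 (1.34), against 1.33% of 8127 measured genes.

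**Figure D4:**
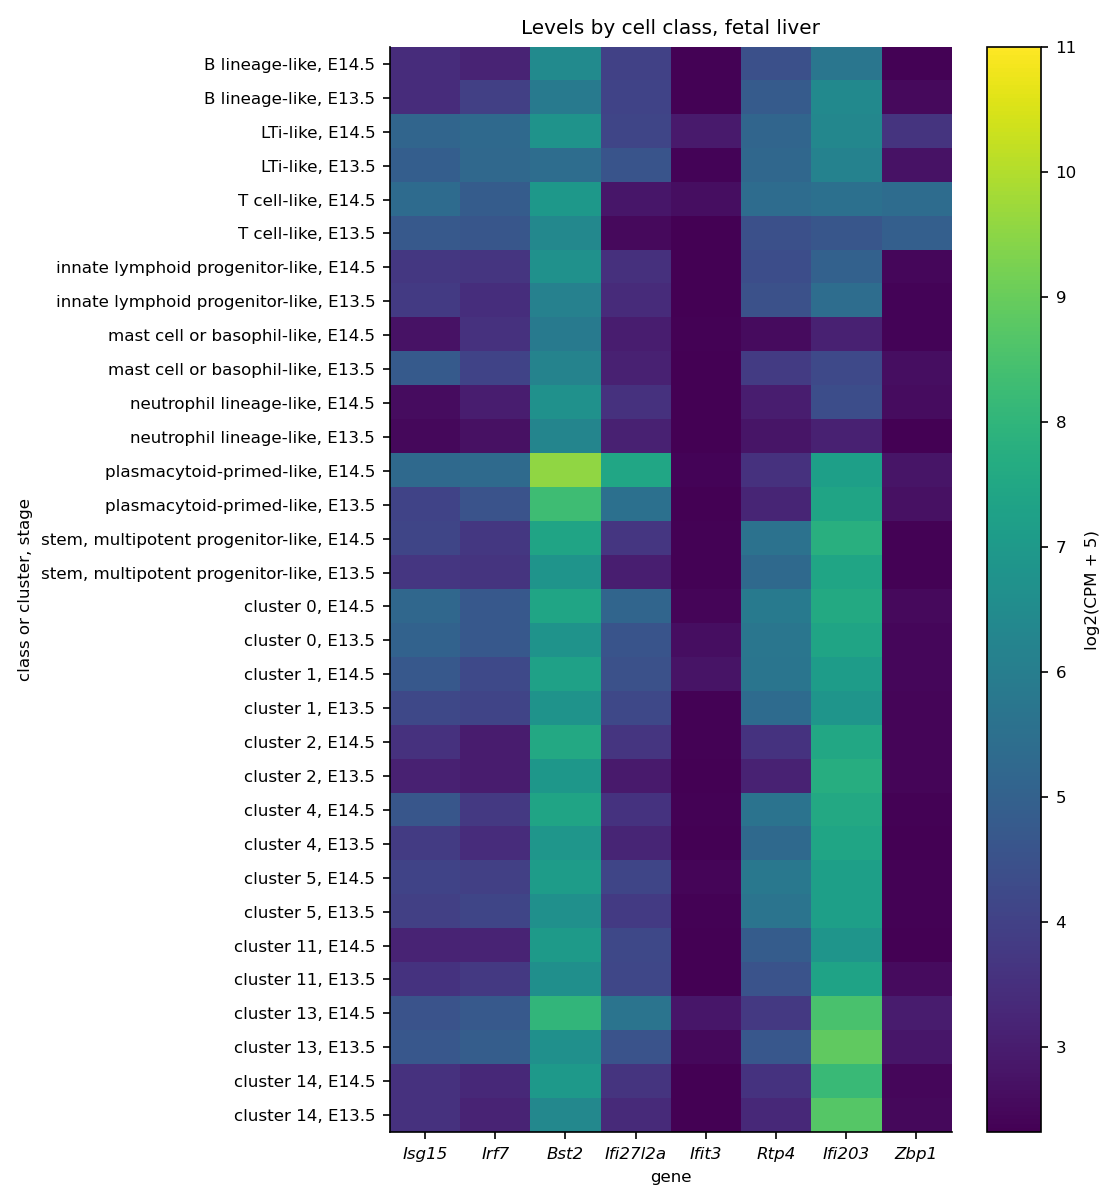
Colour gives log2(CPM + 5) of each gene (columns) in each fetal liver class or cluster with at least 50 cells (rows, E14.5 above E13.5). Bst2 and Ifi27l2a peak in plasmacytoid-primed-like cells (744 and 170 CPM at E14.5), Ifi203 in clusters 13 and 14, and Ifit3 is near the bottom of the scale throughout.

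Between tissues at E13.5, Isg15 (1.66), Ifi27l2a (1.78) and Bst2 (1.12) were called higher in periphery and Ifi203 (-1.82) lower, with a median over the 8 of 0.98. In that comparison 12.6% of 7989 measured genes were called higher and 10.4% lower. Without subtracting the median of all genes (-0.41), the Bst2 fold was 0.71 and would not be called. At E14.5 Ifi203 alone was called (-1.30), against 11.4% of 8121 genes called lower and 12.3% called higher, and the median of the 8 was 0.11. Within innate lymphoid progenitor-like cells at E13.5 all 8 members were above the median gene in periphery, with 5 called higher against 16.3% of 7877 genes. Isg15 held 52.7 CPM in periphery and 8.91 CPM in fetal liver there. In plasmacytoid-primed-like cells at E13.5 the median was 1.29. Of 6 measured members there, 5 were called higher and 1 lower, against 9.47% and 11.9% of 7712 genes. The subtracted median was -0.455 in innate lymphoid progenitor-like and -0.40 in plasmacytoid-primed-like cells, which raises every fold in them. How many members would be called without it is not given. The medians at E13.5 were 0.345 in B lineage-like and -0.07 in mast cell or basophil-like cells, and at E14.5 -0.16 and 0.18. Within LTi-like cells the median of the 8 was below 0, at -0.48 at E13.5 and -0.82 at E14.5. At E13.5 Ifi203 (-1.27), Ifi27l2a (-1.06) and Rtp4 (-1.42) were called lower and Bst2 (1.28) higher there, against 12.3% and 9.53% of 7950 measured genes. Without subtracting the median of all genes (-0.39), Bst2 in these cells would not be called. Isg15 in LTi-like cells at E14.5 held 5.78 CPM in periphery and 30.7 CPM in fetal liver, and Rtp4 held 5.53 CPM in periphery and 30.7 CPM in fetal liver. Both were called lower in periphery, against 10.3% of 8064 measured genes. Kit and tissue cannot be told apart in any of these values.

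Cells were also described one at a time, each thinned to 4000 UMIs so that depth did not set the counts. At least 3 of the 8 genes were seen in 102 of 4053 cells (2.52%, 2.06 to 3.05) in E14.5 periphery and in 228 of 3947 cells (5.78%, 5.07 to 6.55) in E13.5 periphery. Without thinning the shares were 8.04% of 4340 cells at E14.5 and 19.6% of 4155 cells at E13.5. In fetal liver, 5.94% (5.49 to 6.42) of cells at E14.5 and 4.99% (4.56 to 5.44) at E13.5 reached 3 genes. Mast cell or basophil-like cells of periphery, which held little of these genes, had 0 of 61 such cells at E14.5 and 0 of 53 at E13.5, for which a limit of 3 counts of the total gives up to 4.92% and 5.66%.

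Monocyte or macrophage-like cells had the highest share at E14.5 and not at E13.5. At least 3 genes were seen in 20 of 33 cells (60.6%, 42.1 to 77.1) at E14.5 and in 17 of 120 cells (14.2%, 8.47 to 21.7) at E13.5, after 66 and 55 cells of the class were left out as too shallow. Without thinning the shares were 35.4% of 99 cells at E14.5 and 36.0% of 175 at E13.5, over very unequal depths. At E13.5 the share was 17.6% (11.5 to 25.2) in 131 plasmacytoid-primed-like cells and 15.8% (12.8 to 19.1) in 546 cells of cluster 5, with intervals that overlap that of the monocyte or macrophage-like cells. All 8 genes were seen in 4 of the 33 cells at E14.5 and in 0 of the 120 at E13.5, for which the limit of 3 counts is 2.50%. In LTi-like cells at least 3 genes were seen in 47 of 3050 cells (1.54%, 1.13 to 2.04) at E14.5 and 19 of 1536 cells (1.24%, 0.746 to 1.92) at E13.5. Of the 15 E14.5 periphery cells with at least 5 genes, 9 were monocyte or macrophage-like, against 2 of 19 at E13.5, where 8 were in cluster 5.

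**Figure D5:**
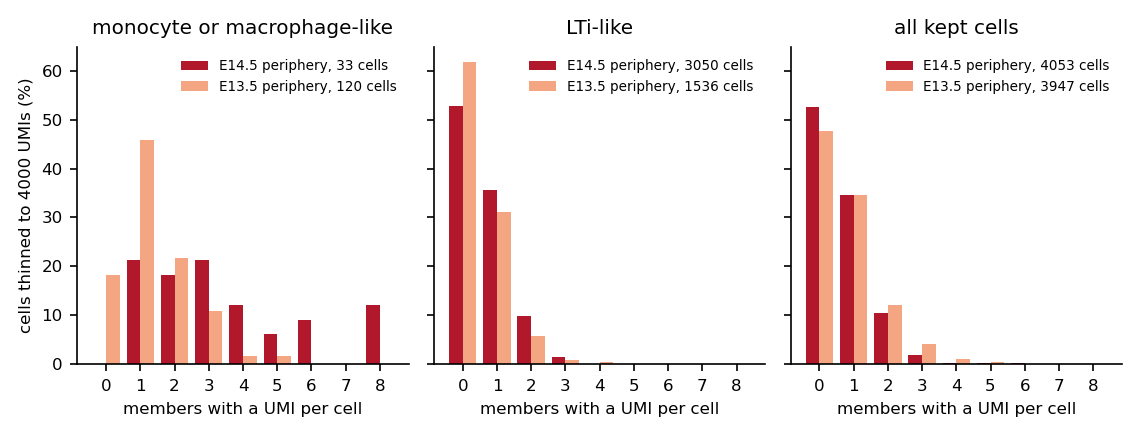
Percentage of cells, each thinned to 4000 UMIs, by the number of the 8 genes with at least 1 UMI, for E14.5 (left bars) and E13.5 (right bars) periphery, in monocyte or macrophage-like, LTi-like and all kept cells. Monocyte or macrophage-like cells spread up to all 8 genes at E14.5 (4 of 33 cells), while most LTi-like cells had none or 1.

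Other genes of the pathway, taken from lists, gave the setting for these values. Type I interferon transcripts were nearly absent, with 2 UMIs over 13 ligand genes in E14.5 periphery, 3 in E13.5 periphery, 8 in E14.5 fetal liver and 7 in E13.5 fetal liver. Ifng, the type II interferon, held 8.10 CPM in E14.5 periphery and 12.3 CPM in E13.5 periphery, and Ifnl3 and Ifnz were the next ligands, at under 0.2 CPM in every library. Of the 6 receptor chains 5 were measured in the periphery stage comparison and none was called, with Ifngr1 at 301 CPM in E14.5 and 214 CPM in E13.5 periphery, Ifngr2 at 80.8 and 75.1 CPM, and Ifnar2 at 30.7 and 32.5 CPM at those stages. In monocyte or macrophage-like cells Ifnar2 held 109 CPM at E14.5 and 62.0 CPM at E13.5.

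Of 15 signalling genes 12 were measured between the periphery stages. The factors Irf1 (29.7 CPM at E14.5 and 55.4 CPM at E13.5) and Irf8 (51.3 and 117 CPM) were called lower, and the feedback inhibitor Socs1 (33.9 and 7.35 CPM) was called higher, against 2.31% of all measured genes called lower and 1.44% called higher. Ptpn6, a phosphatase, stood at -0.14 and the kinase Jak1 at 0.38. Of 21 nucleic acid sensing genes 13 were measured and none was called. Rnaseh2c stood at -0.52, Rnaseh2b at -0.67 and Tmem173, which codes for STING, at 0.08.

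A wider list of 64 interferon-stimulated genes, of which 63 were in the features, went with the 8 in part. Between the periphery stages 28 were measured, with a median log2 fold of -0.21. Ifitm3, a membrane protein that blocks virus entry (43.8 CPM at E14.5 and 82.9 CPM at E13.5), and the chemokine Cxcl10 (72.6 and 132 CPM) were called lower, against 2.31% of all measured genes, and none was called higher. In fetal liver 26 were measured, with a median of 0.05 and none called. In monocyte or macrophage-like cells 56 were measured and 28 called higher, against 5.26% of all measured genes, with a median of 0.99 and 53 above 0. The antiviral gene Rsad2 had 85.0 CPM at E14.5 and 0.837 CPM at E13.5, and Ifit1 had 47.4 CPM at E14.5 and 3.35 CPM at E13.5, both named after their values were seen. Ifitm1 was the 1 gene of the list called lower in the class, with 69.2 CPM at E14.5 and 274 CPM at E13.5, and was likewise named after its values were seen. Irf1 was called lower there too (-2.49). Of 17 stress genes measured there, 5 were called lower, against 4.88% of all measured genes, and none higher, with a median of -0.17. Hspa1a held 15.8 CPM at E14.5 and 321 CPM at E13.5, while Dusp1 (0.90) and Jun (0.43) were above 0.

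The genes with the most similar pattern were sought over 49 units, each a class or cluster of at least 50 cells in 1 library, as the Pearson correlation of log2(CPM + 5) with the mean of the 8 genes after centring within tissue. They were Xaf1 (0.904), Dhx58 (0.860), Parp14 (0.852), Irf9 (0.851), Eif2ak2 (0.837), Oasl2 (0.817), Ctss (0.813) and Dusp22 (0.813), of which the first 6 are in the interferon lists used here. Without the E14.5 monocyte or macrophage-like unit, Irf9 (0.876) and Xaf1 (0.871) led. Units share libraries and depth, and these values are a description. Among the members, the mean was followed most closely by Irf7 (0.870) and Isg15 (0.849) and least by Zbp1 (0.499). That mean includes the member itself, which raises these values, so they cannot be set beside those of the genes outside. Over the 28 pairs of members the median correlation was 0.513, with a range of 0.014 to 0.843 and 15 pairs over 0.5. Without the E14.5 monocyte or macrophage-like unit it was 0.427, with a range of -0.164 to 0.788 and 6 pairs over 0.5. The correlation of Zbp1 with the mean was then 0.288.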

How the data were processed

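Droplet 3' single-cell RNA libraries of sorted CD45+ F4/80- IL7Ra+ mouse cells were analysed, with 1 library per stage and tissue. The deposited matrices hold raw counts of UMIs, gene by barcode, without any scaling. The submitters' processing notes name Cell Ranger version 3 and mm10, and the versions per the file headers are 3.0.1 in periphery and 3.0.0 in fetal liver. The release of the gene models is not given in the sources used here. The 31053 fetal liver and 28427 periphery features were joined by Ensembl ID (27566 shared).

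Barcodes were kept from 500 genes upward and up to 10% mitochondrial UMIs. Scrublet in scanpy 1.11.5 marked doublets, by its automatic threshold in fetal liver (7.90% at E14.5 and 8.19% at E13.5) and, where that marked under 0.5%, by the expected rate in periphery (3.39% and 3.38%). They were left out. Each tissue was clustered on 2000 variable genes without the members and interferon lists (30 principal components, 15 neighbours, Leiden in igraph 0.11.9, resolution 1, seed 1). A cluster was named when over 50% and at least 3 markers of a class stood at 20 CPM or more and exceeded the lower quartile over clusters by 1 on the log2 scale, and its 10 leading genes held no more markers of another class, a rule settled after seeing the data.

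CPM, folds and calls were computed here as described with the results. Counting half-widths come from the Poisson limits. Cells are not replicates, and no p-value was computed. Folds of low genes are understated by the added 5 CPM. The calculation was tested on simulated data. The members and lists were chosen with earlier results of these data known. Genes named are the 8 members, list genes called between periphery stages, the 3 most abundant of the short lists, the 8 most similar genes and class markers. The values of 1 gene of the lists are not reported here. Depth limits single cells to what 4000 UMIs can show.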

Additional observations from a re-analysis of the deposited data

Results flagged for a closer look

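Isg15 moved in opposite directions in 2 cell classes of periphery between E14.5 and E13.5, with a log2 fold of 2.95 in monocyte or macrophage-like cells and -1.16 in LTi-like cells. The difference between the classes was not tested, since each rests on the same 2 libraries.

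Bst2 and Ifi27l2a moved in opposite directions between the stages in the 2 tissues. Bst2 stood at -0.88 in periphery and 0.58 in fetal liver, and Ifi27l2a at -0.87 in periphery and 0.82 in fetal liver. Neither gene passed the call size in either tissue, and the differences were not tested. Plasmacytoid-primed-like cells, where both genes are abundant, were 0.161% of E14.5 and 3.18% of E13.5 periphery cells, and 6.60% of E14.5 and 2.59% of E13.5 fetal liver cells, and the part of these shares was not tested.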

How the results depend on the processing

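The comparisons of the 8 genes rest on 1 library per group. No paired analysis was possible because each group holds 1 library and no result comes from a test. No called value changed sign. In periphery between stages, the median of the 8 (-0.57) was -0.38 with no low-value filter, -0.13 with equal weight per cell, -0.35 when not centred and -0.40 with other cell types left out. Members called lower (1) were 2 with a pseudocount of 1 CPM, 0 with equal weight per cell, and 3 with other cell types or the monocyte or macrophage-like cells left out. The share of all genes called is not given for these settings. The other interferon-stimulated genes (-0.21) were at -0.025 with no filter and 0.019 when not centred. Between tissues at E13.5 the median (0.98) was 1.11 with a pseudocount of 1 CPM, 0.58 with no filter, 1.10 at no more than 5% mitochondrial UMIs, 0.57 when not centred and 0.71 with other cell types left out. At E14.5 (0.11) it was -0.057 with no filter, -0.060 when not centred, 0.47 with equal weight and -0.16 with other cell types left out. LTi-like cells (-0.16) gave 0.065 when not centred. At equal class shares (0.36) the median was -0.18 with at least 1000 genes per cell, which leaves the monocyte or macrophage-like class with under 50 cells, -0.18 with that class left out, and 0.58 when not centred. In monocyte or macrophage-like cells the median (2.58) ran from 2.42 to 2.77 under the other settings run and was 0.95 in cluster 15 alone. The stage difference in cells with at least 3 members, -3.26 percentage points, was -0.75 when thinned to 2000 UMIs and -5.01 for at least 2 members. The alternatives for monocyte or macrophage-like cells, and those that leave them out, were chosen after seeing the data. Except where named, the cause of a shift was not tested. Of 264 settings for single genes in the 4 comparisons, 112 moved the fold by more than its counting half-width, and 20 changed the sign of an uncalled fold.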

Other observations

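Small periphery populations with under 50 cells, present almost wholly at E14.5, held some of the members. Cluster 20, led by immunoglobulin light chain genes and Ms4a1 (29 cells at E14.5 and 0 at E13.5), held 288 CPM of Ifi27l2a, 148 CPM of Ifi203 and no Isg15 UMI. T cell-like cells (19 and 1 cells) held 274 CPM of Ifi27l2a (153 to 451) and 72.9 CPM of Zbp1 (19.9 to 187) at E14.5. The 31 monocyte or macrophage-like cells of E14.5 fetal liver, with a median of 1248 UMIs, held 129 CPM of Isg15 and 207 CPM of Rtp4, from 5 and 8 UMIs.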
